A study of Mus musculus with 8 samples.

Results

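The genes described here are the small leucine-rich proteoglycans Dcn, Lum, Bgn, Fmod, Ogn, Aspn and Prelp together with the large proteoglycan Vcan. They were taken by name from the expression table of mouse peritoneal mesothelial cells (MCs), in which all 8 were present among 13687 genes. MCs line the peritoneal cavity, and the study asked how they respond to cyclic mechanical stretch and whether caveolin 1, the main structural protein of caveolae, alters that response.

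Proteoglycans are core proteins that carry sulfated sugar chains. The small leucine-rich family is secreted and sits on collagen fibrils, whose diameter and spacing it helps to set. Decorin (Dcn), biglycan (Bgn) and asporin (Aspn) form one class, of which decorin and biglycan carry chondroitin or dermatan sulfate and bind TGF-β. Lumican (Lum), fibromodulin (Fmod) and prolargin (Prelp) form another class, in which lumican and fibromodulin can carry keratan sulfate. Osteoglycin (Ogn, also called mimecan) belongs to a further class. Versican (Vcan) is a hyaluronan-binding chondroitin sulfate proteoglycan of loose and provisional matrix. In fibrosis of the peritoneum and of other tissues, cells that take on a fibroblast-like state are known sources of such matrix.

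RNAseq was performed on primary MCs digested from the parietal peritoneum of WT mice and of littermates deficient in CAV1 (B6.Cg-CAV1tm1mls/J, labelled Cav-1- and called CAV1-/- here). Confluent cells of 2 animals per genotype were left static or stretched mechanically for 24 h, which gave 8 libraries in 4 groups of 2. Each animal supplied both a static and a stretched culture, and replicate 1 and replicate 2 stand for different animals in WT and in CAV1-/- MCs. The strength and frequency of stretch used for the mouse cells were not given in the sources used here.

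Library totals were between 9777738 and 21203938 reads, and all stretched libraries were deeper than all static ones. Cav1 itself lay between 247 and 764 TMM-normalized CPM (reads of a gene scaled to a common library size, which was adjusted by the trimmed mean of M-values) in WT libraries and between 12.8 and 34.5 in CAV1-/- libraries. Of 12 mesothelial markers present, 10 were lower in every CAV1-/- library than in every WT library, and their summed level was 2963 to 3903 in WT and 854 to 1116 in CAV1-/- MCs. That order requires both CAV1-/- libraries to lie below both WT libraries in each condition. Among all genes tested, this held for 20.8% in static and 15.9% in stretched culture. Calb2 and Cdh1 were also listed as mesothelial markers but were absent from the genes with values, so they could not be analysed here. All 11 leukocyte markers were highest in the static and the stretched culture of CAV1-/- replicate 1, where they summed to 4714 and 4746, against 73.0 to 455 in the other 6 libraries. The results that rest on this animal are given below with and without it.

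Dcn, on chromosome 10 at positions 97479609 to 97518143 of GRCm38, and Lum, at 97565128 to 97572703, are neighbours separated by 46.984 kb with 0 protein-coding genes between them. Aspn (chromosome 13, 49544443 to 49567565) and Ogn (49608046 to 49624501) lie 40.48 kb apart, and Vcan is on the same chromosome at 89655312 to 89742509. Prelp (chromosome 1, 133910304 to 133921414) and Fmod (134037254 to 134048277) are 115.839 kb apart, while Bgn is on chromosome X at 73483602 to 73495933. The exons of Aspn overlap exons of Cenpp on the opposite strand, and those of Prelp overlap the antisense gene Gm15851. The sources used here do not state that reads were counted by strand, so reads of such partners cannot be told apart.

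Biglycan was the most abundant member in every library and differed least between libraries. Its level was 1523 and 3119 TMM-normalized CPM in static WT MCs, 2434 and 3295 in stretched WT MCs, 1283 and 2247 in static CAV1-/- MCs, and 1663 and 2498 in stretched CAV1-/- MCs (replicates 1 and 2). Replicate 2 was higher than replicate 1 in each group, and the static range overlapped the stretched one in each genotype, as WT overlapped CAV1-/- in each condition. The highest library exceeded the lowest 2.57-fold, and Bgn stood above the 99.4th percentile of the genes tested throughout.

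Decorin was also abundant, but its level differed between replicate 1 and replicate 2 in every group. It was 515 and 861 TMM-normalized CPM in static WT MCs and 203 and 820.4 upon stretching. In CAV1-/- MCs it was 142 and 804 in static culture and 42.6 and 713 upon stretching. Both animals numbered replicate 2 stayed between 713 and 861 in either condition, whereas both animals numbered replicate 1 were lower in static culture and lower again in the stretched one. The ratio of the highest to the lowest library was 20.2.

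Asporin had the lowest mean level of the 8 genes over the 8 libraries, with 7 to 85 reads per library. In replicate 1 animals it was 0.769 in static and 4.19 TMM-normalized CPM in stretched MCs of WT mice, and 0.577 and 2.96 in CAV1-/- MCs. Replicate 2 animals had 4.93 and 1.97 in WT, and 1.34 and 0.821 in CAV1-/- MCs. The stretched culture was thus the higher one in both replicate 1 animals and the lower one in both replicate 2 animals. Cenpp, which overlaps it, ranged from 1.94 to 3.85 TMM-normalized CPM over the 8 libraries.

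Lumican spanned the widest range of the 8 genes, 569-fold between its highest and lowest library. It was 26.9 and 110.5 TMM-normalized CPM in static WT MCs and 3.501 and 99.5 in stretched WT MCs. CAV1-/- MCs had 1.57 and 31.1 in static culture and 0.194 and 33.8 in stretched culture, and the lowest of these values rests on 4 reads. Replicate 1 lay below replicate 2 in every group, by 4.11-fold in static WT MCs and by 174-fold in stretched CAV1-/- MCs.

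Fibromodulin followed the same order of animals. It was 4.13 and 49.5 TMM-normalized CPM in static WT MCs, 3.21 and 28.1 in stretched WT MCs, 1.15 and 16.4 in static CAV1-/- MCs, and 0.825 and 11.7 in stretched CAV1-/- MCs. Replicate 2 exceeded replicate 1 by 8.76-fold to 14.3-fold in the 4 groups.

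Prolargin was 6.09 and 37.4 TMM-normalized CPM in static WT MCs and 1.08 and 24.9 in stretched WT MCs. It was 2.64 and 5.86 in static CAV1-/- MCs and 0.194 and 2.02 in stretched CAV1-/- MCs, the lowest value again resting on 4 reads. Each stretched culture lay below the static culture of its animal, as for 16.9% of all genes. Both static CAV1-/- libraries lay below the lower static WT library, an order found in 20.8% of all genes. The nearest of these values, 5.86 in CAV1-/- replicate 2 and 6.09 in WT replicate 1, rest on 57 and 87 reads.

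Osteoglycin was 7.41 and 13.7 TMM-normalized CPM in static WT MCs and 4.78 and 4.56 in stretched WT MCs. In CAV1-/- MCs it was 2.31 and 6.68 in static culture and 0.485 and 3.06 upon stretching. In either condition both CAV1-/- libraries were below both WT libraries, as were 20.8% of all genes in static and 15.9% in stretched culture. The 10 reads in stretched CAV1-/- replicate 1 were the fewest behind any Ogn value.

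Versican, the large proteoglycan of the set, was 164 and 288 TMM-normalized CPM in static WT MCs and 315 and 429 in stretched WT MCs. It was 396 and 649.7 in static CAV1-/- MCs and 297 and 1039.6 in stretched CAV1-/- MCs. Static CAV1-/- libraries lay above static WT libraries, as did 16.1% of all genes, and the stretched CAV1-/- libraries lay on either side of the stretched WT libraries.

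**Figure D1:**
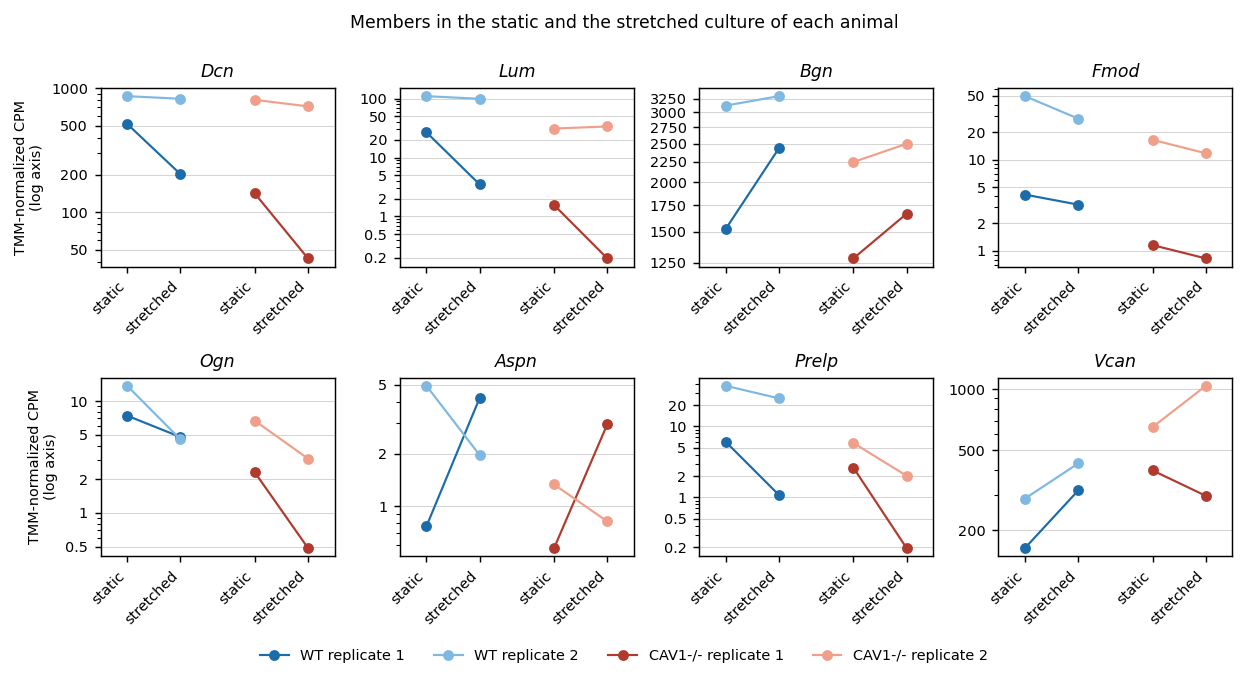
Level of each member (TMM-normalized CPM, log axis with its own range in each panel) in the static and the stretched culture of each animal, with the cultures of an animal joined by a line. Dcn and Lum were lower in the stretched than in the static culture of replicate 1 animals and nearly level in replicate 2 animals, and Aspn ran in opposite directions in replicate 1 and replicate 2 animals.

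Of the 8 members 6 (Dcn, Lum, Bgn, Fmod, Prelp and Vcan) were higher in replicate 2 than in replicate 1 in all 4 groups, as were 21.4% of the genes tested. The fibroblast marker list moved in the same way. Of its 10 genes present, 7 were higher in replicate 2 in all 4 groups and 0 were lower, and the list summed to 547 to 759.5 TMM-normalized CPM in replicate 1 libraries and to 1225 to 1556 in replicate 2 libraries. The 11 leukocyte markers were all lower in replicate 2 in all 4 groups, and 3 of 4 mural and muscle markers were lower as well. The part of these cell types in the members' levels was not tested. In bulk cultures, fewer cells of a type and less RNA per cell cannot be told apart.

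Differences between animals of a genotype accounted for most of the variation of several members. On the log2(value + 1) scale they made up 82.2% of the sum of squares over the 8 libraries for Fmod, 72.4% for Dcn, 67.9% for Lum, 60.8% for Bgn, 50.1% for Prelp and 43.5% for Vcan, against a median of 44.1% over all genes tested. Stretch made up 29.3% for Ogn and 15.7% for Prelp, with a median of 7.19% over all genes. For Aspn 61.6% fell to the animal-by-stretch term, whose median was 6.63%. Genotype accounted for between 13.9% (Dcn) and 39.98% (Ogn), with a median of 14.1%. These shares are descriptions of 8 libraries from 4 animals and carry no test. Within a genotype, the animal and the replicate number cannot be told apart in this design.

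**Figure D2:**
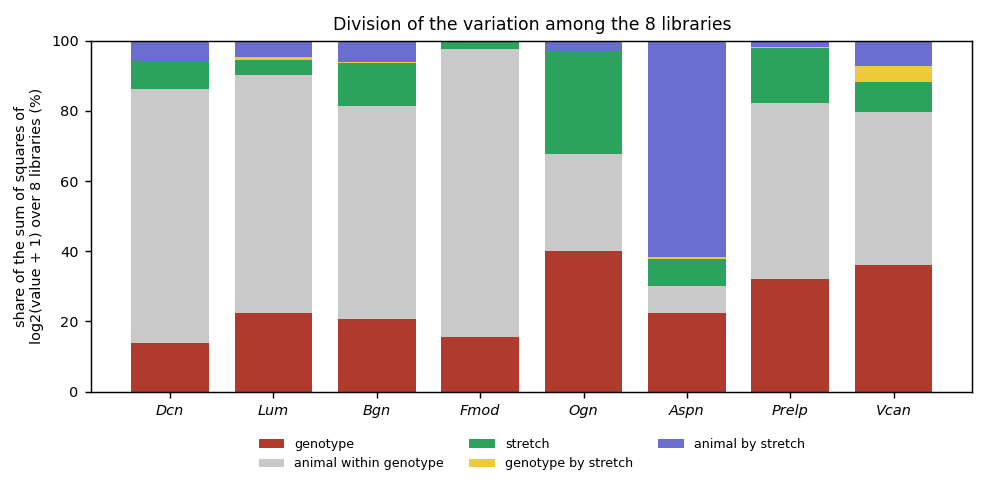
Share (%) of the sum of squares of log2(value + 1) over the 8 libraries that falls to genotype, animal within genotype, stretch, genotype by stretch and animal by stretch, with 1 stacked bar per member. The animal term is the largest for Dcn, Lum, Bgn, Fmod, Prelp and Vcan, the genotype term for Ogn, and the animal-by-stretch term for Aspn.

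Upon stretching, Ogn, Prelp, Dcn and Fmod were lower and Bgn was higher in the stretched culture of all 4 animals. Among all genes tested, 16.9% were lower and 14.5% were higher in all 4 animals. Without CAV1-/- replicate 1, the same 4 members were lower in the remaining 3 animals (23.9% of all genes were), and Bgn and Vcan were higher (20% of all genes). Because each stretched library was deeper than its static counterpart, depth and stretch cannot be told apart in this design.

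For Ogn the stretched-to-static ratio of the deposited values was 0.645 and 0.332 for WT mice, against 0.210 and 0.459 for CAV1-/- mice. The mean difference on the log2(value + 1) scale over both genotypes was −1.005 with a standard error of 0.434 (95% interval −2.06 to 0.0517, limma, adjusted p = 0.984). For Prelp the ratios were 0.178 and 0.666 in WT and 0.0736 and 0.346 in CAV1-/- animals. Its mean difference was −1.28 with a standard error of 0.951 (limma, adjusted p = 0.991).

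Since the static and the stretched culture came from the same animal, the fit was repeated with the animal as a block. The standard errors shrank to 0.173 for Ogn and 0.213 for Prelp, and the adjusted p-values were 0.0537 and 0.0504 (limma), just short of the threshold of 0.05. This blocked fit called 201 of the 13665 genes, or 1.47%, and 0 of the 8 members. With the animal as a random effect, whose correlation was estimated over all genes, limma called 0 genes (2826 at an unadjusted p of at most 0.05), and the adjusted p was 0.105 for Ogn and 0.17 for Prelp. Without the block limma called 0 genes for stretch over both genotypes (0%), with 647 genes at an unadjusted p of at most 0.05, edgeR called 0 and DESeq2 called 34, none of them a member.

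Dcn showed ratios of 0.395 in WT replicate 1 and 0.300 in CAV1-/- replicate 1, but 0.953 and 0.886 in the replicate 2 animals. Its mean log2 difference was −0.82 (SE 1.05, limma, adjusted p = 0.999, or 0.178 with the animal as a block). For Lum the corresponding ratios were 0.130 and 0.124 in replicate 1 animals, and 0.901 and 1.08 in replicate 2 animals, with a mean log2 difference of −0.94 (SE 1.58, limma, adjusted p = 0.999). The neighbours Dcn and Lum therefore shared the pattern of a marked difference in replicate 1 animals and almost none in replicate 2 animals. Fmod had ratios between 0.568 and 0.777 and a mean log2 difference of −0.44 (SE 1.21, limma, adjusted p = 0.999). Its values in CAV1-/- replicate 1 rest on only 14 static and 17 stretched reads, and in WT replicate 1 on 59 and 65.

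Bgn ran the other way, with ratios of 1.60 and 1.06 in WT animals and 1.296 and 1.11 in CAV1-/- animals and a mean log2 difference of 0.32 (SE 0.323, limma, adjusted p = 0.994). Vcan had ratios of 1.93 and 1.49 in WT animals, 0.749 in CAV1-/- replicate 1 and 1.60 in CAV1-/- replicate 2. Its mean log2 difference was 0.44 (SE 0.44, limma, adjusted p = 0.994). The Aspn ratios were 5.45 and 5.13 in replicate 1 animals and 0.400 and 0.614 in replicate 2 animals, so that its mean of 0.38 (SE 0.485, limma, adjusted p = 0.999) describes no single animal.

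**Figure D3:**
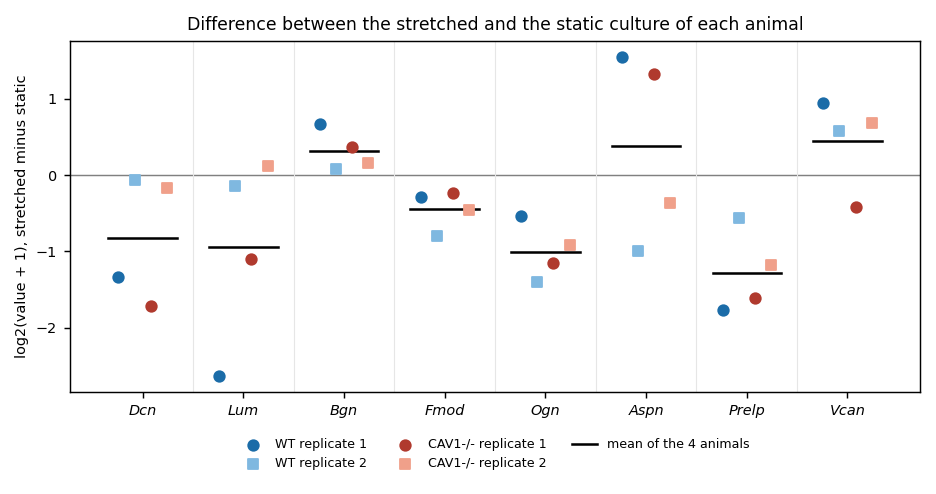
Difference of log2(value + 1) between the stretched and the static culture of each animal for the 8 members, with circles for replicate 1, squares for replicate 2 and a bar at the mean of the 4 animals. Ogn and Prelp lie below 0 in every animal with means of −1.005 and −1.28, Bgn lies above 0 in every animal, and Aspn splits by replicate.

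Tested within each genotype, no member passed either. In WT MCs 0 genes were called (0%; limma, 310 at an unadjusted p of at most 0.05, edgeR 0, DESeq2 3), and in CAV1-/- MCs 0 genes were called (0%; limma, 286 at an unadjusted p of at most 0.05, edgeR 0, DESeq2 7). The log2 difference of Ogn was −0.97 in WT and −1.04 in CAV1-/- MCs, and that of Prelp −1.17 and −1.39. For Vcan it was 0.76 in WT and 0.13 in CAV1-/- MCs. The interaction of genotype and stretch, the test of such differences, called 0 genes (0%; limma, 66 at an unadjusted p of at most 0.05, edgeR 0, DESeq2 0). Among members it ranged from −0.63 for Vcan (95% interval −2.77 to 1.52) to 0.89 for Lum (95% interval −6.81 to 8.6), and every adjusted p was 1.

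The RefSeq promoter table (GRCm38.p6) held 6 members (Bgn, Fmod, Ogn, Aspn, Prelp and Vcan). The 250 bases before the start are shown for the 4 of these whose stretched culture lay on the same side of the static one in every animal, on the strand of the gene, 5′ to 3′, with motif matches in capitals. The letters searched on both strands were TATAAA (a promoter core box), TGANTCA (for AP-1 factors), GGAATG (for TEAD factors), CAGACA (for SMAD factors) and GGGCGG (a GC box).
Bgn, chrX:73483351-73483600, plus strand: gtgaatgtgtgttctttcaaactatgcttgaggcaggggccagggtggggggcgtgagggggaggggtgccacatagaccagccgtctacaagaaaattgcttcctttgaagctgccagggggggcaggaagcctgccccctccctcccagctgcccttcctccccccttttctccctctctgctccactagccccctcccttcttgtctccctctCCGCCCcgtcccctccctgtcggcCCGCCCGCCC
Ogn, chr13:49607765-49608014, plus strand: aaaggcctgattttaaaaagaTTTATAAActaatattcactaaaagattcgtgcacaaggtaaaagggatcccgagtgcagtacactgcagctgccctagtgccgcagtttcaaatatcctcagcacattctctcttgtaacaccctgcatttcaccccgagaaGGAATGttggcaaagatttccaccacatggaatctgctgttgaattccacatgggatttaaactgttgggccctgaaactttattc
Fmod, chr1:134037004-134037253, plus strand: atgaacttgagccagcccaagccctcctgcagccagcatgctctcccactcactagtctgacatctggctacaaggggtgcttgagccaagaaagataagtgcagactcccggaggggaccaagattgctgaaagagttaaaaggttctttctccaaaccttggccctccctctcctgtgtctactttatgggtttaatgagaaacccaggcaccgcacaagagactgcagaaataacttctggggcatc
Prelp, chr1:133921402-133921651, minus strand: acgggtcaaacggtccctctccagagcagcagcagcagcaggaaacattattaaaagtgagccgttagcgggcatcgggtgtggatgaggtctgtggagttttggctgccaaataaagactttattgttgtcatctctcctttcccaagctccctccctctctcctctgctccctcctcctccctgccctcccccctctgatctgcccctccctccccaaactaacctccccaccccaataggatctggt
The capitals in Bgn, the member that was higher upon stretching, mark 3 GC boxes within 34 bases of the start, the last 2 of which overlap. The capitals in Ogn mark 2 overlapping TATAAA matches on opposite strands, 229 to 222 bases before the start, and 1 GGAATG at 86 to 81 bases before it. Fmod and Prelp held no match to any of the motifs. Vcan held 2 GC boxes and Aspn 2 TATAAA matches at other positions. Over all 32851 promoters of the same length, GGGCGG was found in 32.7%, TATAAA in 12.4%, GGAATG in 12.6%, CAGACA in 17.1% and TGANTCA in 6.75%. A match describes letters only, not a site that was shown to be bound.

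Per kilobase of the longest coding transcript, the 8 genes were unequal in every library. Bgn ranked 1 in all 8 libraries, at 530 to 1362 TMM-normalized CPM per kb, and Dcn ranked 2, at 24.3 to 490 per kb. Vcan, whose transcript of 12427 bases is the longest, ranked 3 or 4 at 13.2 to 83.7 per kb. When all exons of a gene were counted as its length, Bgn still ranked 1, Dcn 2 to 3 and Vcan 2 to 4.

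The share of Bgn in the summed level per kb of the 8 genes was 66.1% and 68.5% in static WT MCs and 87.2% and 70.9% in stretched WT MCs. In CAV1-/- MCs it was 82.1% and 63.6% in static culture and 93.2% and 67.0% upon stretching, higher in the stretched culture of every animal. The share of Dcn ran the opposite way, with 30.7% and 26.0% in static and 10.03% and 24.3% in stretched WT MCs, and 12.5% and 31.3% in static and 3.29% and 26.3% in stretched CAV1-/- MCs. In stretched CAV1-/- replicate 1 the level of Vcan per kb, 23.9, came close to that of Dcn, 24.3. Vcan made up 1.23% to 2.20% of the sum in WT libraries and 3.24% to 5.43% in CAV1-/- libraries. This share also depends on Bgn and Dcn, which make up most of the sum. The level of Vcan itself overlapped, since stretched CAV1-/- replicate 1 (297 TMM-normalized CPM) lay below both stretched WT libraries (315 and 429). None of the other 5 members exceeded 2.398% in any library.

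**Figure D4:**
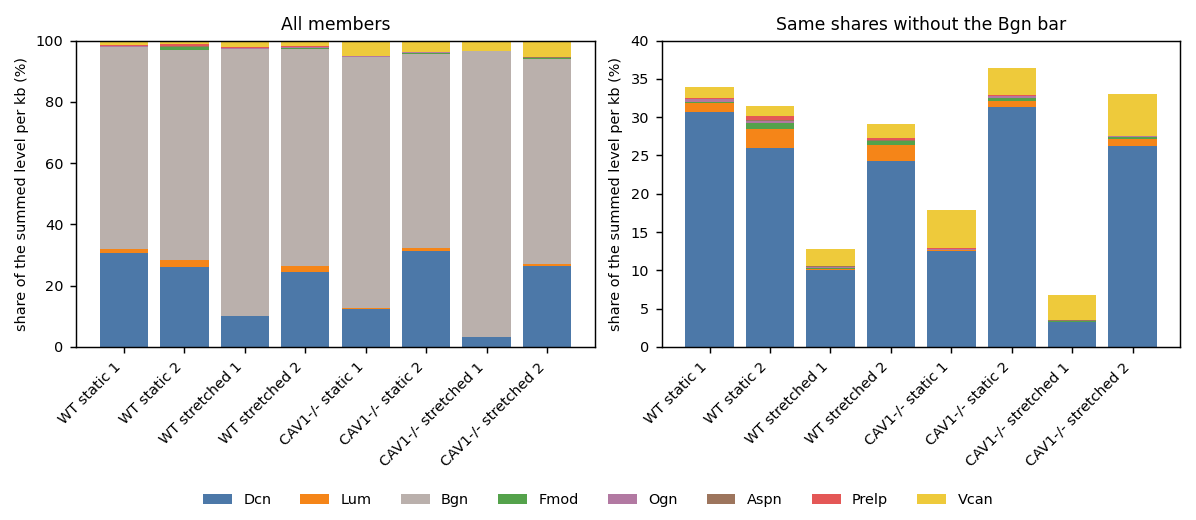
Share (%) of each member in the summed level per kb of the 8 genes, with 1 stacked bar per library, for all members on the left and with the Bgn bar left out on an axis ending at 40% on the right. Bgn fills 63.6% to 93.2% of every bar, and the Dcn bar is shortest in stretched CAV1-/- replicate 1, at 3.29%.

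Compared with WT MCs, CAV1-/- MCs had lower mean levels of all 7 small leucine-rich proteoglycans and a higher mean level of Vcan, in static as in stretched culture, but no member passed the test. Without CAV1-/- replicate 1, this direction held for 4 of the 7 small leucine-rich proteoglycans in either condition. That count sets CAV1-/- replicate 2 alone against the mean of both WT replicates. In either condition, each CAV1-/- library was below the WT library of the same replicate number for all 7, although the number pairs different animals. The share of all genes with this order was not counted, and the order was not tested. In static culture limma called 10 genes (0.0732%), and in stretched culture 8 (0.0585%), and neither set held a member. Cav1, the deleted gene, had log2 differences of −4.11 (limma, adjusted p = 0.102) and −4.47 (limma, adjusted p = 0.124), each with a standard error of 0.624. Whether a difference was called depended on the spread of the gene. Krt8, with a standard error of 0.154, was called in static culture at −2.66 (limma, adjusted p = 0.0134). The exact permutation test of 2 against 2 libraries cannot give a p below 0.333.

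Ogn and Prelp were the members whose static CAV1-/- libraries both lay below both WT libraries, an order found in 20.8% of all genes. In stretched culture this held for Ogn, with 15.9% of all genes. Ogn averaged 10.6 ± 4.46 in static WT and 4.49 ± 3.09 in static CAV1-/- MCs (TMM-normalized CPM, SD, n = 2), a log2 difference of −1.14 (95% interval −2.64 to 0.352, limma, adjusted p = 0.751). Upon stretching the means were 4.67 ± 0.159 and 1.77 ± 1.82 (SD, n = 2), a log2 difference of −1.21 (95% interval −2.7 to 0.288, limma, adjusted p = 0.894). Prelp averaged 21.7 ± 22.1 and 4.25 ± 2.28 in static culture (SD, n = 2), with a log2 difference of −1.72 (SE 1.34, limma, adjusted p = 0.843), and −1.95 in stretched culture (SE 1.34, limma, adjusted p = 0.958).

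Vcan was the member whose static CAV1-/- libraries both exceeded both WT libraries, as did 16.1% of all genes. Its mean was 523 ± 179 in CAV1-/- against 226 ± 87.7 TMM-normalized CPM in WT MCs (SD, n = 2), a log2 difference of 1.22 (95% interval −0.294 to 2.74, limma, adjusted p = 0.721). In stretched culture the difference was 0.59 (95% interval −0.922 to 2.11, limma, adjusted p = 0.988). There 0 members exceeded both WT libraries, against 14.6% of all genes. Without CAV1-/- replicate 1, Vcan was above both WT libraries in static (34.2% of all genes) and in stretched culture (32.5%). Ogn and Prelp were then below them in static culture (37.1% of all genes), and Ogn and Aspn in stretched culture (32.6%).

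Dcn, Lum and Fmod had log2 differences of −0.97, −2.62 and −1.39 in static and −1.22, −1.72 and −1.20 in stretched culture, with standard errors of 1.49, 2.24 and 1.71. Without CAV1-/- replicate 1 the sign turned for 5 of these 6 differences. They were then 0.272 and 0.801 for Dcn, 0.117 and 0.201 for Fmod, and 0.709 for Lum in stretched culture, while static Lum stayed negative at −0.794. Bgn differed by −0.36 and −0.47 (SE 0.457) and Aspn by −0.75 and −0.55 (SE 0.686). Without that animal static Bgn also turned, to 0.0438, and stretched Bgn stayed negative. These values set CAV1-/- replicate 2 alone against the mean of both WT replicates. For Dcn, Lum, Fmod and Bgn replicate 2 was the higher one in all 4 groups. Against WT replicate 2, CAV1-/- replicate 2 was lower for these genes in either condition. Static Dcn was 804 against 861, Lum 31.1 against 110, Fmod 16.4 against 49.5 and Bgn 2247 against 3119 TMM-normalized CPM. The number pairs different animals, this order was not tested, and its share over all genes was not counted. CAV1-/- replicate 1 was also the animal with the high leukocyte markers, and the part of those cells in the members' levels was not tested.

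**Figure D5:**
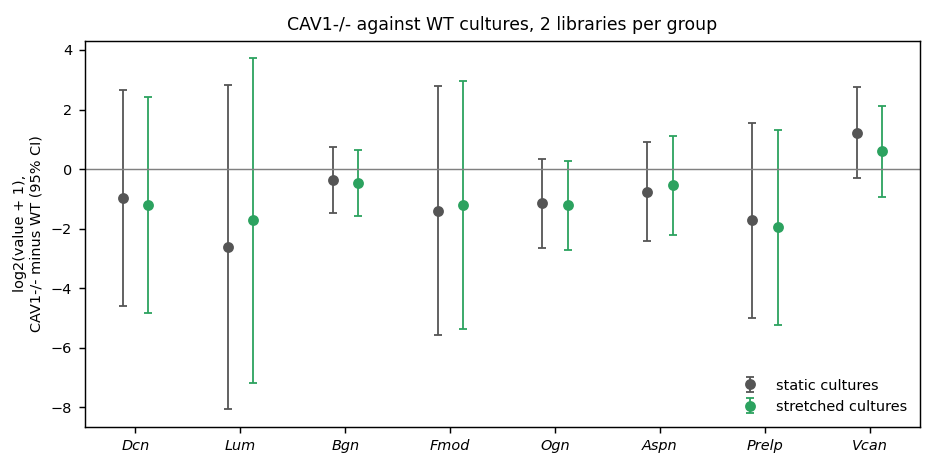
Difference of log2(value + 1) between CAV1-/- and WT MCs in static (grey) and stretched (green) culture, with bars for the 95% interval of limma (2 libraries per group, all 8 libraries in the fit). The 7 small leucine-rich proteoglycans lie below 0 and Vcan above 0 in either condition, and every interval includes 0.

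Of 10 further family members and relatives listed, 5 were in the table (Podn, Tsku, Ecm2, Optc and Podnl1), and Tsku, a secreted signalling modulator, was the most abundant at 58.2 to 89.9 TMM-normalized CPM. Podocan (Podn) was 12.6 and 6.22 in static and 2.81 and 2.96 in stretched WT MCs, and 8.65 and 3.29 in static and 2.33 and 1.75 in stretched CAV1-/- MCs. Like Ogn, it was lower in the stretched culture of all 4 animals, as were 16.9% of all genes. Unlike Ogn, it was higher in replicate 1 than in replicate 2 in static culture. Its mean log2 difference upon stretching was −1.22 (SE 0.329, limma, adjusted p = 0.984, or 0.0602 with the animal as a block). For Tsku the difference was −0.17. Of aggrecan-like proteoglycans and link proteins only Hapln4 was present, at 0.296 to 1.46, with a difference of 0.16.

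The genes that build, trim and bind the proteoglycans were compared upon stretching over both genotypes. Without the block 0 of them passed (limma), and with the animal as a block 9 of 63 tested in 6 lists did, against 1.47% of all genes. All 9 calls were lost with the animal as a random effect (limma, adjusted p between 0.0541 and 0.7 with an estimated correlation). In the same blocked fit 2 of 12 mesothelial and 1 of 10 fibroblast markers were called lower, 1 of 4 mural and muscle markers was called higher, and 0 of 11 leukocyte markers were called. These 4 marker calls were lost as well (limma, adjusted p between 0.111 and 0.219 with an estimated correlation). The 9 genes were singled out because they passed the blocked test. Their log2 differences are the same in both fits, and the adjusted p-values given next are the limma values of the blocked fit.

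Core protein processing was the list with the most of them, at 1 of 11 genes higher and 3 lower (median log2 difference 0.02, against −0.01 for all genes). Adamts5, a protease that cleaves versican and aggrecan, was 199 and 117 in static and 101.5 and 56.7 TMM-normalized CPM in stretched WT MCs. In CAV1-/- MCs it was 116 and 104 in static and 40.5 and 55.2 in stretched culture, and it fell by 1.10 on the log2 scale (adjusted p = 0.0278). Adamts1, another versican-cleaving protease, fell by 0.88 (adjusted p = 0.0421). It was lower in the stretched culture of all 4 animals, as were 16.9% of all genes, an order that the blocked test favours. Htra1, a secreted serine protease, fell by 0.38 (adjusted p = 0.0456). Tll1, a tolloid-like protease of the family that cleaves the biglycan propeptide, rose by 0.74 (adjusted p = 0.0291). Adamts9 differed by −1.08 without passing (adjusted p = 0.0726).

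Among the genes of sugar chain synthesis, Chsy1, a chondroitin sulfate synthase, rose by 0.44 (adjusted p = 0.0443), and was 26.7 and 47.7 in static and 38.0 and 57.8 TMM-normalized CPM in stretched MCs of WT mice, and 42.2 and 74.7 in static and 58.8 and 109 in stretched CAV1-/- MCs. It was the only 1 of 14 chondroitin and dermatan sulfate genes that passed, and Chsy3 differed by 0.57 (adjusted p = 0.111). In the keratan sulfate list of 6, the sulfotransferase Chst2 rose by 0.74 and the galactosyltransferase B4galt4 fell by 0.54 (adjusted p = 0.0327 for each), while Chst1 differed by 1.16 (adjusted p = 0.0698). None of 7 linker region genes passed, with Xylt1 at 0.50 and B4galt7 at 0.31.

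Among 12 fibrillar and associated collagens, Col5a3 rose by 0.75 (adjusted p = 0.0291), and Col3a1 differed by −0.97 (adjusted p = 0.071) and Col11a1 by 0.89 (adjusted p = 0.133). The list's median was −0.23. Of 13 receptors and ligands, Met, the hepatocyte growth factor receptor that decorin is known to bind, fell by 0.55 (adjusted p = 0.0291), from 167 to 181 in static to 104 to 128 TMM-normalized CPM in stretched libraries. The hyaluronan synthases Has2 and Has1, whose product versican binds, differed by 1.12 (adjusted p = 0.0598) and 0.71 (adjusted p = 0.138).

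Between genotypes 0 genes of these lists passed in static or in stretched culture (limma, no block). In static culture, the chondroitin and dermatan sulfate list had 11 of 14 genes higher in CAV1-/- MCs with a median log2 difference of 0.2. The members' own median was −1.06 in static and −1.2 in stretched culture, beside −0.01 and 0 for all genes tested, and 7 of 8 members were lower in either condition, as were 52.2% and 50% of all genes. Without CAV1-/- replicate 1, 4 of 8 members were lower in either condition (50.9% and 50% of all genes), with medians of −0.213 and 0.00986. There CAV1-/- replicate 2 alone was set against the mean of both WT replicates.

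Genes most alike to each member were taken by Pearson's r of log2(value + 1) over the 8 libraries among 10790 genes averaging at least 5. The libraries are pairs of cultures from 4 animals, and with so many candidates high values arise readily, so these are descriptions only. Dcn was closest to Ngly1 (r = 0.995), Slit3 (0.993) and Thbs3 (0.987), and Lum to C1qtnf5 (0.996), Garem (0.992) and Gli2 (0.985). Fmod was close to Mxra8 (0.986) and Usp27x (0.985), and Bgn was closest to Sf3b4 (0.96), Tsc22d1 (0.957) and Zfp623 (0.956). Ogn was closest to Zbed3 (0.982), Sox12 (0.976) and Pkmyt1 (0.975), Prelp to Swap70 (0.985), Mt1 (0.983) and Shroom3 (0.98), and Vcan to Clmp (0.981), Arpc1a (0.976) and Rap1a (0.973). Aspn averaged too little for this comparison.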

How the data were processed

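RNAseq was performed on poly(A) RNA of 8 MC cultures. After trimming with Cutadapt, the authors quantified single reads with RSEM against transcripts of GRCm38 and scaled the estimates by the TMM method of edgeR. The deposited signal is the TMM-normalized CPM of 13687 genes. Its values are whole multiples of the value of 1 read (100% whole within 0.1), so reads were recovered. The detection floor was set at 3 reads, or 0.146 to 0.308 TMM-normalized CPM, which covers counting error only.

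The members and gene lists were chosen with earlier results of these data known. Genes reaching 1 in 2 or more libraries (13665) were compared on log2(value + 1) by limma (version 3.58.1, R version 4.3.3; lmFit, eBayes with trend), with 1 mean per group over all 8 libraries, no replicate block, and Benjamini-Hochberg adjustment over all genes. Genes were called at an adjusted p under 0.05, two-sided. Differences understate the change of low genes because of the pseudocount. The p-values of this fit measure the spread between the 2 libraries of a group, pooled over the 4 groups. The static and the stretched culture of an animal were counted there as independent, although they are not. With the animal as a block, stretch is measured against the spread of the stretch difference between animals of a genotype. Intervals are 95% intervals of the unblocked fit.

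Static and stretched cultures with the same number came from the same animal, according to the labels, and deviated together from their group means (r = 0.703 in WT and 0.85 in CAV1-/- MCs over genes), so the animal was fitted as a block in an alternative. The other alternatives were pseudocounts of 0.1 and 5, no filter, a mean of at least 5, median-of-ratios rescaling, only the 4 libraries compared, a random effect of the animal, the recovered reads tested by DESeq2 (version 1.42.0) or by the quasi-likelihood method of edgeR (version 4.0.16), each library left out, and CAV1-/- replicate 1 left out. The counts of members without that animal and the alternatives for genes that are no member were added after the data were seen. The tests were tested on simulated data.

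The genes named are the members, Cav1, for each member the 3 genes most like it (for Fmod, 1 is not reported here), and in each list the 2 with the largest difference upon stretching and those past the threshold in the blocked fit. Gene positions and lengths are from GENCODE M21 on GRCm38. The human MCs of the study were not analysed here.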

Additional observations from a re-analysis of the deposited data

How the results depend on the processing

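With 2 animals per genotype, no member was called in the reported comparisons, and Ogn and Prelp had as few as 10 and 4 reads in a library. Of 1167 alternative values for single genes, 1057 kept their direction and side of the threshold, 94 turned in sign and 16 passed the threshold where the reported value had not. No sign of a member turned under median-of-ratios rescaling.

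The number of genes called was 10 for CAV1-/- against WT in static culture. It was 246 with the replicate number as a block, a number that pairs different animals across genotypes (r = 0.522 over genes), 2 with the animal as a random effect, 0 with only the 4 libraries, 2 with edgeR, 309 with DESeq2, 0 without CAV1-/- replicate 1, and 0 to 5 with 1 library left out. That replicate block called 1 member, Fmod (−1.39, limma, adjusted p = 0.0346). For stretched culture 8 became 110 with the replicate block (r = 0.484), 0 with only the 4 libraries, 237 with DESeq2, 0 without CAV1-/- replicate 1, and 0 to 5 with 1 library left out. For stretch, 0 became 3 in WT (DESeq2), 1 with the animal as replicate block and 7 with DESeq2 in CAV1-/- MCs, and 201 with the replicate block and 34 with DESeq2 over both genotypes, with 0 under the random effect. The animal block changed the call of no member. Without CAV1-/- replicate 1, the members higher upon stretching in every animal were 2 in place of 1, and in stretched culture the members below both WT libraries were 2 in place of 1 and those above were 1 in place of 0. The cause of these changes was not tested.

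Signs turned without CAV1-/- replicate 1 for stretch in CAV1-/- MCs (Lum 0.113, Aspn −0.36), for stretch over both genotypes (Aspn −0.0406), for genotype in static culture (Dcn 0.272, Bgn 0.0438, Fmod 0.117) and in stretched culture (Dcn 0.801, Lum 0.709, Fmod 0.201), and for the interaction (Dcn 0.529, Ogn 0.055, Aspn −0.638). They also turned with edgeR and DESeq2 for Lum upon stretching in CAV1-/- MCs (0.0608 and 0.0571) and for Dcn in the interaction (0.101 and 0.0931), and with a pseudocount of 5 for Ogn and Prelp in the interaction (0.183 and 0.0924).

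With each library left out in turn, the differences whose sign turned ranged as follows. For stretch in WT MCs the ranges were Dcn −1.71 to 0.3, Lum −3.63 to 0.851, Bgn −0.139 to 0.895, Fmod −2.19 to 1.11, Aspn −0.593 to 1.15 and Prelp −2.98 to 0.65. In CAV1-/- MCs they were Dcn −2.96 to 1.07, Lum −2.93 to 1.94, Bgn −0.141 to 0.667, Fmod −1.86 to 1.16, Aspn −0.0761 to 1.04 and Vcan −0.772 to 1.03. Over both genotypes they were Dcn −1.83 to 0.185, Lum −2.16 to 0.274, Fmod −1.27 to 0.381, Aspn −0.0545 to 0.817, Vcan −0.00655 to 0.896, Hapln4 −0.0393 to 0.353 and Htra1 −1.19 to 0.43. For genotype in static culture they were Dcn −2.22 to 0.272, Bgn −0.877 to 0.157, Fmod −3.04 to 0.258 and Aspn −1.63 to 0.117, and in stretched culture Dcn −3.23 to 0.801, Lum −4.16 to 0.709, Fmod −2.6 to 0.201, Aspn −1.11 to 0.0117 and Vcan −0.309 to 1.5. For the interaction they were Dcn −2.26 to 1.78, Lum −1.54 to 3.33, Bgn −0.631 to 0.403, Fmod −1.46 to 1.84, Ogn −0.79 to 0.663, Aspn −0.666 to 1.08, Prelp −2.04 to 1.59 and Vcan −1.53 to 0.275. A lone culture was taken to vary like those of the other groups.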
